A study of Mus musculus with 4 samples.

Results

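Translation initiation factors (eIF) place the ribosome on the start codon of a messenger RNA, elongation factors (eEF) move it along the coding sequence, and release factors free the finished chain at the stop codon. The genes described here were taken from the deposited count table by symbol: protein-coding genes on the autosomes or X whose names begin with Eif1 to Eif6, Eef1 or Eef2, together with Etf1, Gspt1 and Gspt2. This gave 70 genes of the 56239 in the table, 3 of them on X; the Y-linked copy of an eIF2 subunit was left out. In the counts of DP thymocytes, 66 of the 70 had enough reads to be tested.

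The libraries came from CD4+CD8+ double-positive (DP) thymocytes, the stage at which T cell precursors carry both co-receptors, sorted from C57BL/6 mice. Both groups carried floxed alleles of Chaf1b on both chromosomes; in the 2 KO libraries the mice also had Cd4-cre, a transgene that expresses Cre recombinase under Cd4 control, and in the 2 WT libraries they did not. Chaf1b makes the p60 part of CAF-1, the chaperone complex that loads histones onto freshly replicated DNA, and the comparison asks which DP transcripts differ when it is deleted. How many mice gave each library is not stated in the labels.

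Total counts were 24688653 and 21068760 in KO replicates 1 and 2, and 23215539 and 27369874 in WT replicates 1 and 2. Levels are given as CPM, counts brought to a common library size with TMM factors, and, where genes are compared with each other, as FPKM, which is CPM per 1000 bases of exon. Chaf1b stood at 12.2 and 14.8 CPM in KO and at 27.9 and 31.7 CPM in WT, so both KO libraries were lower (log2 fold change -1.15 ± 0.17, SE, edgeR adjusted p = 0.0172 with sex as a term; -1.14 ± 0.16 and 0.267 without it). Counts cover every exon, so reads from outside the deleted part can remain. The 9 markers of DP cells summed to 19066 and 15293 CPM in KO and to 14852 and 14566 CPM in WT. The lists for B cells, myeloid cells, erythroid cells and thymic epithelium each summed to under 10 CPM in every library, and the 4 NK and gamma-delta T cell markers to 99.3 and 91.1 CPM in KO and 89.5 and 76.2 CPM in WT, with Ncr1 at 0 throughout. Replicate 1 of each genotype expressed Xist (47301 counts in KO and 47368 in WT, against 12 and 8 in replicate 2), so replicate 1 was female and replicate 2 male in both genotypes. KO and WT libraries of the same sex are also set against each other, as a female and a male pair.

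KO replicate 1 stood apart from the other libraries. Ribosomal protein transcripts took 5.01% and 3.65% of counts in KO replicates 1 and 2, against 2.91% and 2.96% in WT. Mitochondrially encoded transcripts took 3.30% and 2.03% in KO, against 1.33% and 1.45% in WT. Both shares moved with most of the differences described here, and their part in them was not tested. In bulk RNA a shift in the mix of cells cannot be told apart from a change in RNA per cell.

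As a group, the translation factors leaned towards higher levels in KO. Together they took 2.32% of counts in KO replicate 1 (exact 95% interval 2.31 to 2.33, counting error only) and 1.77% in KO replicate 2 (1.76 to 1.78), against 1.57% (1.56 to 1.57) and 1.59% (1.58 to 1.59) in WT replicates 1 and 2. Both KO libraries were thus above both WT libraries. Most of that difference lay in the 2 most abundant members, the elongation factor genes Eef1a1 and Eef2, which made up 1.13% and 0.689% of all counts in KO and 0.536% and 0.546% in WT. Without those 2 genes the group took 1.14% ± 0.0782 in KO and 1.04% ± 0.00935 in WT (SD, n = 2).

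The log2 fold change (KO over WT) was above 0 for 46 of the 66 tested members and below 0 for 20, with a median of 0.21, while the median over all 15070 tested genes was -0.00255. In 39 members both KO libraries lay above both WT libraries, where 27.9% of all tested genes did so, and in 12 members both lay below, where 28.4% of all tested genes did so. Without KO replicate 1 the members' median was 0.10 and 48 were above 0. With library-total scaling in place of TMM the median was 0.12, with 41 above 0, beside a median of -0.08 over all genes.

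Single members mostly did not pass the test over all genes. With edgeR's quasi-likelihood test and Benjamini-Hochberg adjustment over all tested genes, 0 members were called higher (0.00664% of all tested genes were) and 0 were called lower (0% of all). At an unadjusted p under 0.05, 16 members were higher and 2 lower, where 8.14% of all genes were higher and 8.69% lower. With sex as a term in the same test, 1 member rose, Eef1b2 (1.01% of all genes were called higher), and 1 member fell, Eif4a2 (2.20% of all were called lower). DESeq2 without a sex term called 3 members higher, Eef1a1, Eef1b2 and Eef2 (1.17% of all genes), and Eif4a2 lower (1.89% of all genes).

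**Figure D1:**
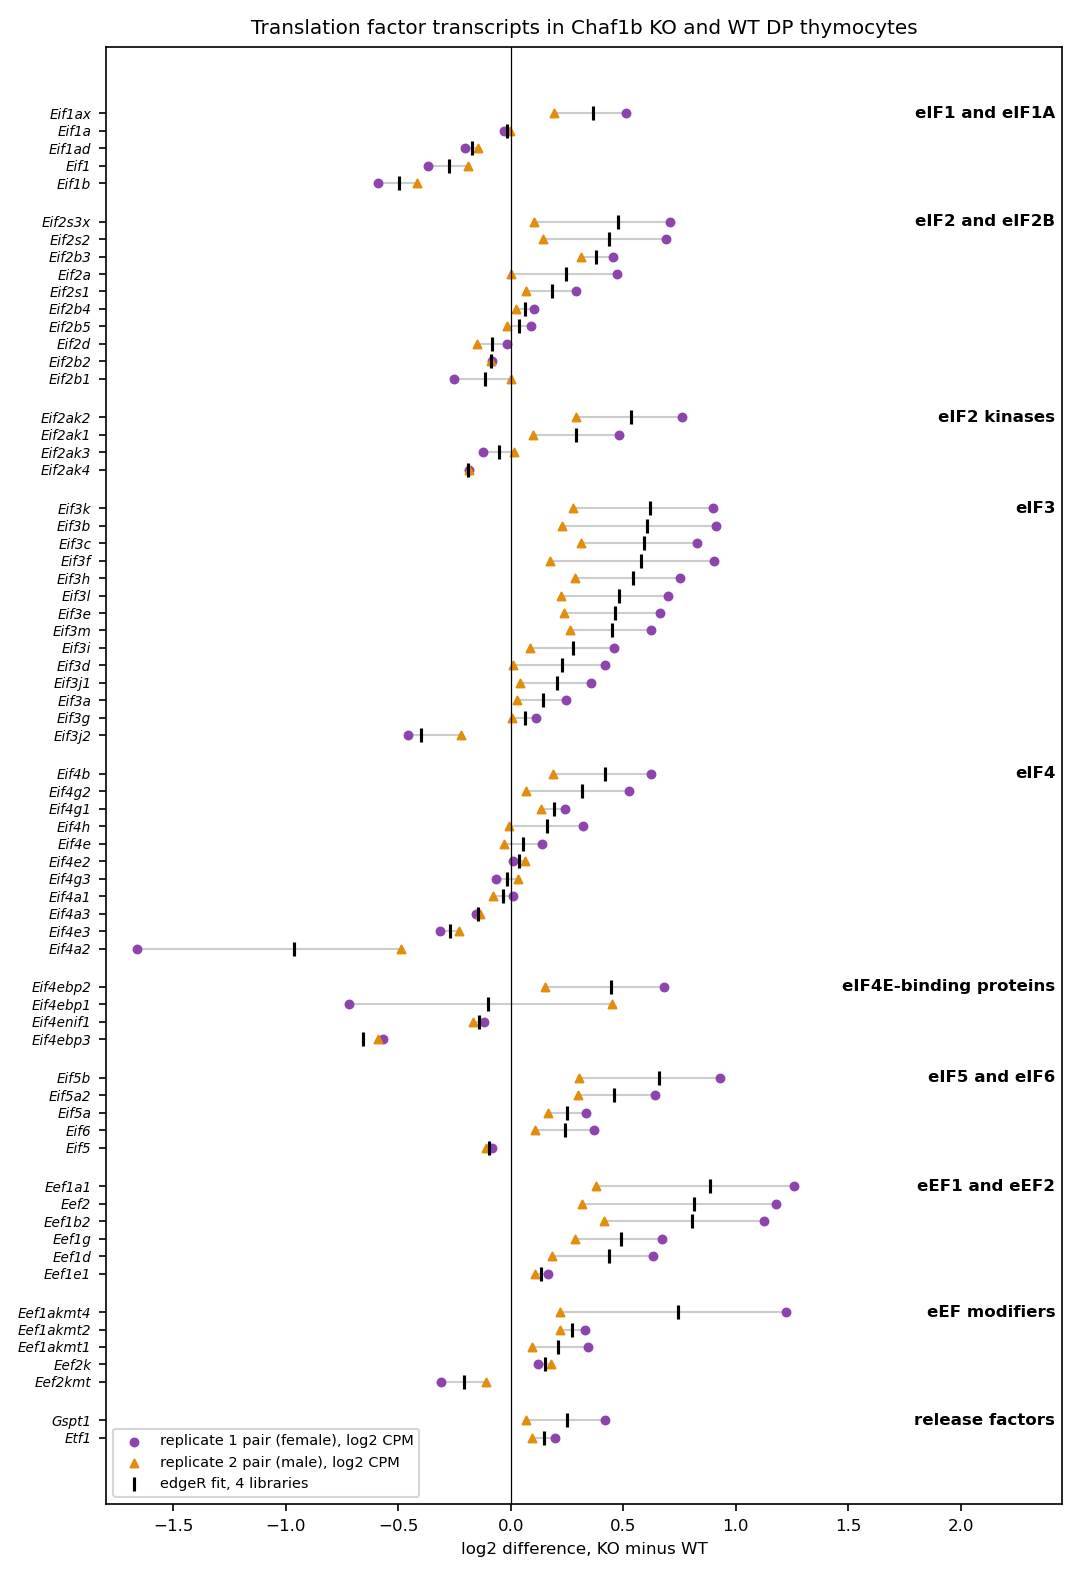
Log2 difference between KO and WT for the 66 tested members, grouped by role; circles are the female pair and triangles the male pair (differences of log2 CPM), and bars are the edgeR fit over the 4 libraries. The eIF3 and elongation factor genes lie mostly to the right of 0, and Eif4a2 lies farthest to the left at -0.96.

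The elongation factors had the largest positive differences among the classes. All 6 tested genes of eEF1 and eEF2 had both KO libraries above both WT libraries, where 27.9% of all tested genes did so. The class median log2 fold change was 0.65 (0.55 with library-total scaling and 0.30 without KO replicate 1). Eef1a1 encodes eEF1A1, the GTPase that brings aminoacylated tRNA to the ribosome, and was the most abundant member per exon length, at 2791 and 1531 FPKM in KO and 1165 and 1177 FPKM in WT. Eef2 encodes the GTPase that moves the ribosome on by a codon, and ranked next at 1602 and 874 FPKM in KO and 707 and 703 FPKM in WT.

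In CPM, Eef1a1 had 6959 and 3816 in KO replicates 1 and 2 and 2905 and 2934 in WT. KO replicate 1 was far above the other libraries, and KO replicate 2 was also above both WT libraries. The log2 fold change was 0.88 ± 0.30 (SE; edgeR adjusted p = 0.267), and the difference was 1.26 in the female pair, against 0.38 in the male pair. The fold change was 0.39 without KO replicate 1. Eef1a1 has near-identical processed copies elsewhere in the genome, and reads shared with them were not counted, so its level is uncertain. Eef2 showed the same order, with 5326 and 2905 CPM in KO and 2350 and 2336 CPM in WT. Its log2 fold change was 0.81 ± 0.30 (SE; edgeR adjusted p = 0.281), or 0.31 without KO replicate 1.

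Eef1b2 encodes eEF1B2, a subunit of the exchange factor that recharges eEF1A with GTP, and it was the member that rose in the test with the sex term. It had 371 and 237 CPM in KO and 170 and 177 CPM in WT. Neither KO library overlapped the WT libraries. Its log2 fold change was 0.77 ± 0.19 with the sex term (SE; edgeR adjusted p = 0.0470) and 0.81 ± 0.22 without it (adjusted p = 0.267). The call with the sex term was lost under library-total scaling (edgeR adjusted p = 0.0660) and under DESeq2 size factors (0.0511), and the log2 fold change without KO replicate 1 was 0.45.

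The other exchange-factor subunits were higher by less. Eef1g had 318 ± 60.8 CPM in KO and 226 ± 0.817 CPM in WT (SD, n = 2), and Eef1d had 105 ± 29.2 CPM in KO and 77.6 ± 4.91 CPM in WT. Their log2 fold changes of 0.49 and 0.43 did not pass in edgeR without or with the sex term. Eef1e1, placed in this class by its name, encodes a part of the multi-tRNA synthetase complex rather than of the exchange factor, and differed by 0.14. Eef1a2, the eEF1A gene of muscle and neurons, had 1 count in KO and 2 in WT over both libraries and was not tested.

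**Figure D2:**
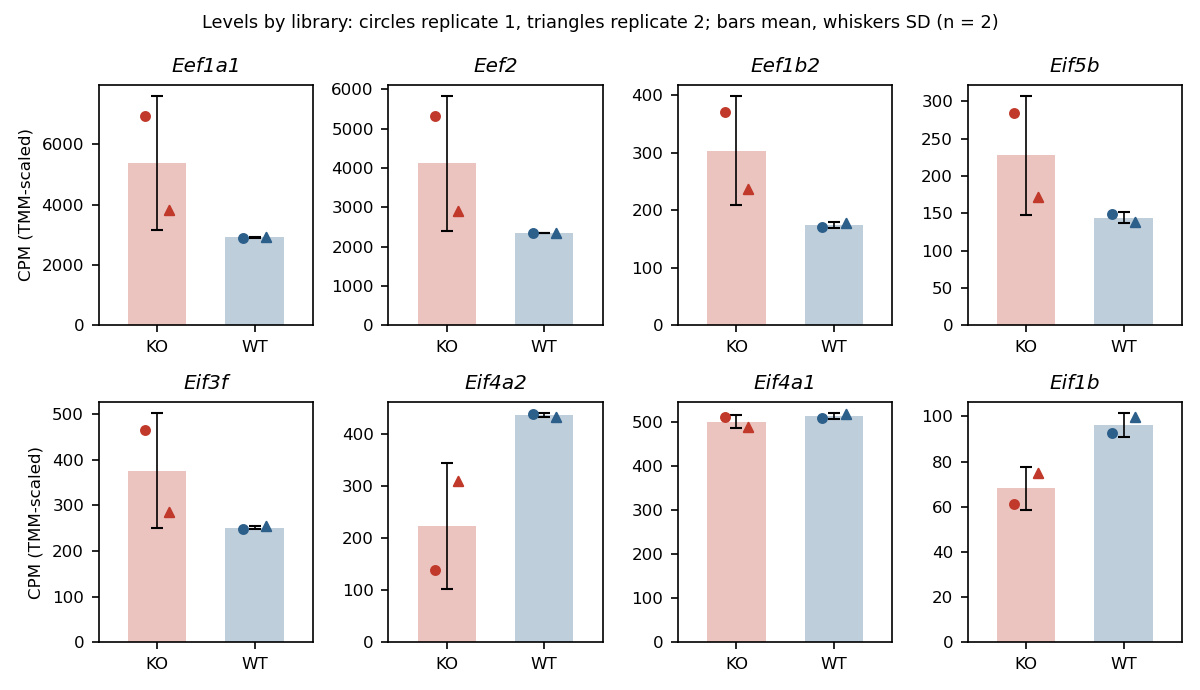
CPM by library for 8 members, with circles for replicate 1 (female), triangles for replicate 2 (male), bars for the mean and whiskers for the SD (n = 2); each axis starts at 0. Eef1a1, Eef2, Eef1b2, Eif5b and Eif3f are above WT in both KO libraries and highest in KO replicate 1, Eif4a2 and Eif1b are below WT in both, and Eif4a1 overlaps.

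Many transcripts of translation factors are known to begin with a run of pyrimidines, the terminal oligopyrimidine (TOP) element, through which growth signals set their translation. Windows around the RefSeq starts on GRCm38.p6 are shown for 8 members, from 5 bases before the annotated start to 25 bases from it on, in the sense direction. They are the 5 highest and the 2 lowest log2 fold changes among members with at least 5 CPM and no overlap between the groups, and Eif3f, an abundant eIF3 gene that was added after its values were seen. Capitals mark the first run of at least 6 letters C or T that begins with C.
Eef1a1: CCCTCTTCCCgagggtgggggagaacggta
Eef2: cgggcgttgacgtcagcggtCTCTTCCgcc
Eef1b2: gttccgccggaagtagccgaggccttgcgt
Eif3f: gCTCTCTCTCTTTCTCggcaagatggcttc
Eif3k: gcgctggtgctgaaagcgCCTTTCCCTTTg
Eif5b: ttcccacctggccggcggctctactggaga
Eif4a2: cccgtaggagcagggcggccgaggagcgcg
Eif1b: gggctaaatacgcggcgccggccattttgt
The windows are at chr9:78481700-78481729 (minus strand) for Eef1a1, chr10:81176626-81176655 (plus) for Eef2, chr1:63176826-63176855 (plus) for Eef1b2 and chr7:108934410-108934439 (plus) for Eif3f. Those of the others are chr7:28981864-28981893 (minus) for Eif3k, chr1:37998005-37998034 (plus) for Eif5b, chr16:23107463-23107492 (plus) for Eif4a2 and chr9:120492601-120492630 (plus) for Eif1b.

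Of these 8 windows, 4 held such a run: Eef1a1, Eef2, Eif3f and Eif3k, all higher in both KO libraries. Eef1b2 and Eif5b, also higher in both, held none, nor did Eif4a2 and Eif1b, which were lower in both. In Eef1a1 the run reached the edge of the window, 5 bases before the annotated start, so it may begin farther upstream. In Eif3f the run began 4 bases before the start. In Eef2 and Eif3k it began only at base 16 and base 14, so it did not open the annotated transcript. Most of the 8 were picked by fold change, so they cannot test a link between run and direction. Among the 51 tested members with a RefSeq entry, 14 (27.5%) held a run in at least 1 listed window, against 23.7% of the 10020 tested genes with an entry and 20.1% of all 32851 windows. Members with the run had a median log2 fold change of 0.31 and those without it one of 0.18. Medians with the run were between 0.19 and 0.37 under 3 other settings of window and length. The gap closed when the window ran from 10 bases before the start to 31 from it on, with medians of 0.19 for both, so it depended on where the run was sought; annotated starts also need not be the start used in DP cells.

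Initiation opens with the factors that bind the small ribosomal subunit, and among these eIF3 had the highest class median. eIF3 is the largest initiation factor, a scaffold that holds the small subunit, the other factors and the message together. Of its 14 genes, 13 had a log2 fold change above 0 and lay above WT in KO libraries of both sexes. The class median was 0.46, or 0.21 without KO replicate 1. Female-pair differences had a median of 0.64 and male-pair differences one of 0.20. Both KO libraries lay above both WT libraries for 11 of these genes, where 27.9% of all tested genes did so. None of the 14 passed edgeR with or without the sex term (lowest adjusted p 0.0709 with it and 0.267 without), and DESeq2 called 0. In edgeR without the sex term, 8 were higher and 0 lower at an unadjusted p under 0.05. Of all tested genes, 8.14% were higher and 8.69% lower at that cut.

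The 8 subunits that form the octamer core, with PCI or MPN domains, had a median log2 fold change of 0.51, from 0.14 for Eif3a to 0.62 for Eif3k. Without KO replicate 1 the median of these 8 was 0.24. Eif3k had 174 and 114 CPM in KO and 93.1 and 94.4 CPM in WT. Eif3f had 465 and 286 CPM in KO and 249 and 254 CPM in WT. In both genes KO replicate 1 was by far the highest library, and KO replicate 2 was above both WT libraries by less. The values for Eif3c (0.59), Eif3h (0.54), Eif3l (0.48), Eif3e (0.46) and Eif3m (0.45) were similar.

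The other subunits were less uniform. Eif3b, a subunit of the module that contacts the decoding side, had 269 and 171 CPM in KO and 143 and 146 CPM in WT (log2 fold change 0.61 ± 0.21, SE). Its partners in that module differed by less, with 0.28 for Eif3i and 0.06 for Eif3g. Eif3d, whose product can bind the cap, had a value of 0.23, and 43.3% of its exon bases overlap another annotated gene, so its count leaves out shared reads. Eif3j1 and Eif3j2 are near-identical copies, at 0.20 and -0.40, and their counts are uncertain. Under library-total scaling and without KO replicate 1, 12 of the 14 genes were above 0.

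**Figure D3:**
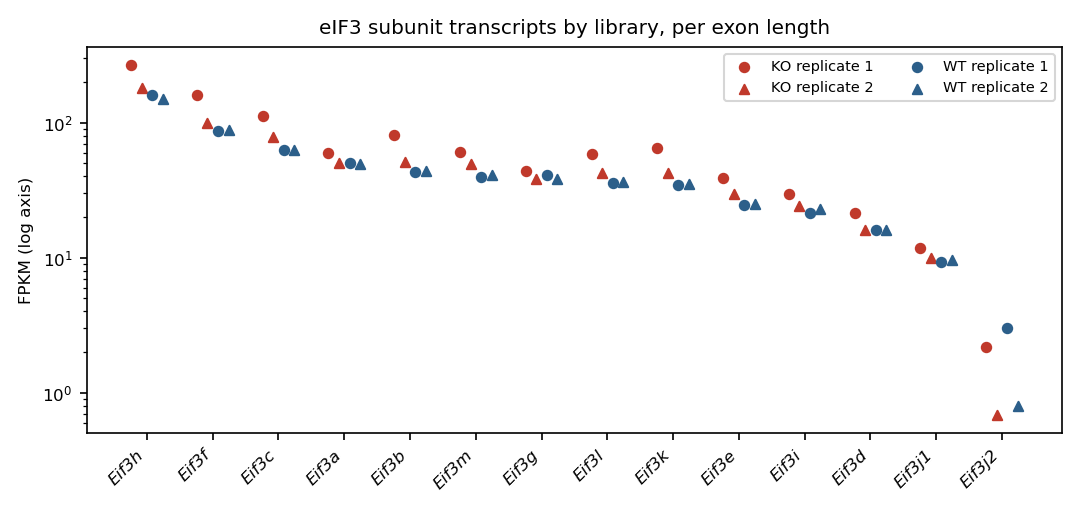
FPKM (log axis) of the 14 eIF3 genes in each library, ordered by the WT mean. KO replicate 1 is the highest library for 13 of them, KO replicate 2 lies nearer to the WT libraries, and the genes keep a spread from 11.9 (Eif3j1) to 269 (Eif3h) in KO replicate 1, with Eif3j2 below them.

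The transcript levels of eIF3 subunits were far from equal in every library. Leaving out Eif3j2, FPKM spanned 11.9 to 269 in KO replicate 1, 9.94 to 181 in KO replicate 2, 9.27 to 160 in WT replicate 1 and 9.67 to 148 in WT replicate 2. Eif3h was the highest and Eif3j1 the lowest in each of the 4. The low end is uncertain, since Eif3j1 has a near-identical copy and 20.15% of its exon bases overlap other genes.

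eIF4F binds the cap and opens the message, and its RNA helicase is made from either of 2 close paralogs, Eif4a1 and Eif4a2. Eif4a2 (ENSMUSG00000022884, chromosome 16) was the member that fell in the test with the sex term, and it had the lowest log2 fold change of the 66. It had 138 and 308 CPM in KO replicates 1 and 2, against 438 and 432 CPM in WT. The WT libraries were close together and both KO libraries were below them, KO replicate 1 by the most. The log2 fold change was -1.07 ± 0.24 with the sex term (SE; edgeR adjusted p = 0.0389) and -0.96 ± 0.35 without it (adjusted p = 0.277); the female pair differed by -1.66 and the male pair by -0.49. Without KO replicate 1 it was -0.495 (edgeR adjusted p = 0.0385). The call with the sex term was lost under library-total scaling, where the edgeR adjusted p was 0.0548, and kept under DESeq2 size factors at 0.0447.

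Eif4a1 showed no such difference, at 511 and 489 CPM in KO and 507 and 517 CPM in WT (log2 fold change -0.04 ± 0.13, SE; edgeR adjusted p = 0.898). Per exon length, Eif4a2 stood at 0.220 and 0.512 of the level of Eif4a1 in KO, against 0.701 and 0.679 in WT, so the ratio was lower in both KO libraries. The span of Eif4a2 holds 5 annotated small nucleolar RNA genes on the same strand, and 13.3% of its exon bases overlap other annotated genes. Of the 9 tested members with such genes in their span, 5 had a log2 fold change above 0 and 4 below, from -0.96 (Eif4a2) to 0.81 (Eef2), with a median of 0.14, against 0.23 for the other 57 members.

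The eIF4 group as a whole was mixed, with a median of 0.04 over 11 tested genes (-0.05 with library-total scaling), 6 of them above 0. Eif4b, an activator of the helicase, had a log2 fold change of 0.42 ± 0.17, with 644 and 479 CPM in KO and 418 and 421 CPM in WT. Eif4h, a related activator, had 0.16. Eif4g2, which encodes a scaffold that lacks the cap-binding partner's site, had 1601 ± 361 CPM in KO and 1287 ± 4.50 CPM in WT (SD, n = 2; log2 fold change 0.32), and without KO replicate 1 the value was 0.07. The scaffolds Eif4g1 and Eif4g3 had 0.19 and -0.02. The cap-binding protein gene Eif4e had 73.7 and 73.4 CPM in KO and 67.0 and 74.9 CPM in WT, so the groups overlapped. Its homologues Eif4e2 and Eif4e3 had 0.04 and -0.27, and Eif4a3, a helicase of the exon junction complex, had -0.14. Eif4e1b, a germline form, had 0 counts in all 4 libraries, which allows up to 0.132 and 0.139 CPM in KO and 0.127 and 0.106 CPM in WT.

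The binding proteins hold Eif4e away from the scaffold until they are phosphorylated. Eif4ebp2 was the main one in these cells, at 681 and 452 CPM in KO and 425 and 407 CPM in WT (log2 fold change 0.45 ± 0.21, SE; 0.12 without KO replicate 1). Eif4ebp1 was low, at 3.04 and 5.23 CPM in KO and 5.06 and 3.81 CPM in WT, and its groups overlapped. Eif4ebp3 had 8 to 18 counts a library, with 67.3% of its exon bases shared with another gene. Eif4enif1, which carries Eif4e into the nucleus, had 95.6 ± 5.23 CPM in KO and 106 ± 3.18 CPM in WT (SD, n = 2). None of the 4 passed edgeR in either fit.

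Eif1 and Eif1b, paralogs that encode the factor guarding start codon choice, were both lower in KO. Eif1b had 61.4 and 74.7 CPM in KO and 92.5 and 99.9 CPM in WT, with no overlap between the groups. Its log2 fold change was -0.50 ± 0.14 (SE), with an edgeR adjusted p of 0.267 that became 0.0631 with the sex term. Eif1 had 267 and 298 CPM in KO and 345 and 340 CPM in WT (log2 fold change -0.28 ± 0.12; adjusted p = 0.310). The KO libraries lay below the WT libraries in both genes, in the female and the male pair alike, and the differences were -0.36 and -0.20 without KO replicate 1. Per exon length, Eif1b stood at 0.429 and 0.468 of Eif1 in KO and at 0.501 and 0.548 in WT.

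Of the eIF1A genes, X-linked Eif1ax had 138 and 107 CPM in KO and 96.6 and 93.9 CPM in WT (log2 fold change 0.37 ± 0.15), while its copy Eif1a had -0.02. Eif1ad, which carries an eIF1A-like domain, had -0.17. None of these 3 passed either fit.

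eIF2 delivers the initiator tRNA, and eIF2B recharges it with GTP. Of the 3 eIF2 subunits, Eif2s2 had 112 ± 25.3 CPM in KO and 83.0 ± 3.50 CPM in WT (SD, n = 2; log2 fold change 0.44), and Eif2s1 had a log2 fold change of 0.18. Eif2s3x, an X-linked gene expressed from both X chromosomes, had 218 and 108 CPM in KO and 134 and 101 CPM in WT. Its groups overlapped, since the female libraries were above the male ones in both genotypes; KO and WT differed by 0.71 between the females and by 0.10 between the males, and without KO replicate 1 the log2 fold change was -0.115. The 5 eIF2B subunits ran from -0.12 (Eif2b1) to 0.38 (Eif2b3), and the eIF2-independent factors Eif2a and Eif2d had 0.25 and -0.09. None of the 10 passed either fit (lowest edgeR adjusted p = 0.290 and, with the sex term, 0.151).

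The eIF2 kinases shut down initiation under stress, each in answer to its own signal. Eif2ak2, which encodes PKR, the sensor of double-stranded RNA, had 43.3 and 34.6 CPM in KO and 25.5 and 28.3 CPM in WT. Both KO libraries were above both WT libraries, with a log2 fold change of 0.53 ± 0.15 (SE). The edgeR adjusted p was 0.267, or 0.100 with the sex term, and the fold change was 0.36 without KO replicate 1. Eif2ak1, the kinase that senses lack of haem, had 0.29 ± 0.13. Eif2ak4, which encodes GCN2, the sensor of amino acid shortage, was slightly lower at 15.5 in each KO library and 17.7 CPM in each WT library (-0.19 ± 0.14). Eif2ak3, which encodes PERK of the endoplasmic reticulum, had 111 and 123 CPM in KO and 121 and 122 CPM in WT, with overlap.

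At the last step of initiation eIF5 triggers GTP hydrolysis on eIF2 and eIF5B joins the large subunit. Eif5b had 284 and 171 CPM in KO and 149 and 139 CPM in WT, both KO libraries being higher. The fitted log2 difference was 0.66 ± 0.24 (SE), with an edgeR adjusted p of 0.272, or 0.0719 with the sex term. It was 0.25 without KO replicate 1, and 16.9% of its exon bases overlap another gene. Eif5 differed slightly the other way, with 299 ± 8.65 CPM in KO and 320 ± 5.61 CPM in WT (SD, n = 2). Eif5a, whose hypusine-carrying product helps the ribosome past difficult stretches, had 446 and 400 CPM in KO and 353 and 357 CPM in WT (0.25 ± 0.13). Its paralog Eif5a2 had 0.46 and Eif6, which keeps the subunits apart, 0.24.

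Among the modifiers of elongation factors, 4 of 5 tested genes had a log2 fold change above 0, with a median of 0.21, as did both tested release factors, with a median of 0.20. Eef2k, the kinase that slows elongation by phosphorylating eEF2, had 42.9 and 46.3 CPM in KO and 39.4 and 40.9 CPM in WT (log2 fold change 0.15 ± 0.11). The methyltransferase genes Eef1akmt1 and Eef1akmt2 had 0.21 and 0.27, and Eef2kmt had -0.21. Eef1akmt4, at 15 to 36 counts a library, had the largest of the class at 0.74 ± 0.43 (SE, edgeR adjusted p = 0.400). Other genes overlap 31.7% of the exon bases of Eef1akmt4 and 23.0% of those of Eef2kmt, so their counts leave out shared reads. Etf1, the factor that reads stop codons, had 147 ± 4.46 CPM in KO and 133 ± 2.68 CPM in WT (SD, n = 2), and its GTPase partner Gspt1 had 174 ± 24.1 CPM in KO and 146 ± 4.91 CPM in WT. None of these genes passed either fit. Gspt2 had 0 counts in all libraries, and Eef1akmt3 had 0 in KO and 1 in each WT library.

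The differences ran the same way in the 2 sexes and were larger in the female pair, as they were for most tested genes. Across the 66 members the female and male differences had a Pearson r of 0.785 and a Spearman rho of 0.806. Across the 15070 tested genes these were 0.403 and 0.521. Genes are not independent replicates, each library enters only 1 of the pairs, and both share the TMM scaling. The members were not matched by level to all tested genes, here or in the shares below, and differences of genes with few counts are noisier. KO was higher in both pairs for 43 of the 66 members (65.2%), against 35.5% of all tested genes, and lower in both for 15 (22.7%), against 36.7% of all. The difference was larger in size in the female pair for 57 members (86.4%), and for 73.3% of all tested genes. The members' median was 0.33 for females and 0.09 for males. Sex, KO replicate 1 and anything else shared by a replicate number cannot be told apart in this design.

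**Figure D4:**
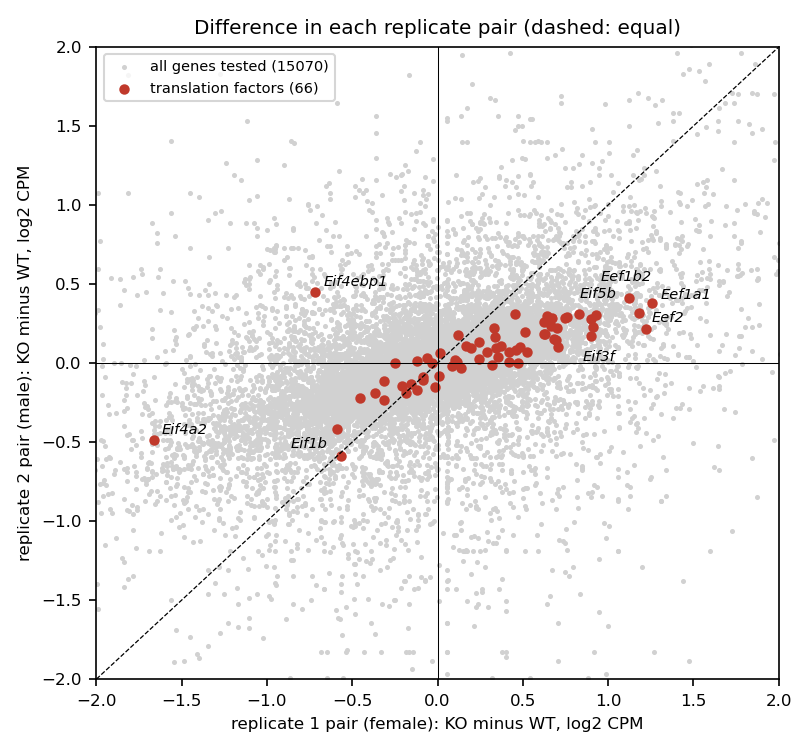
KO minus WT difference of log2 CPM in the female pair (horizontal) and the male pair (vertical) for the 66 members (red) and all 15070 tested genes (grey; 366 lie beyond the axes). Most members lie in the upper right, below the dashed line of equal differences, with Eif4a2 alone at the far left and Eif4ebp1 in the upper left.

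Genes that work beside these factors were taken from 4 lists. Of 22 partners and regulators of initiation, 18 had a log2 fold change above 0 (15 with library-total scaling), with a median of 0.14. Without KO replicate 1, 13 of the 22 were above 0, with a median of 0.06. The member with the highest mean CPM, Pabpc1, which encodes the poly(A)-binding protein, had 1073 ± 436 CPM in KO and 664 ± 40.2 CPM in WT (SD, n = 2). Its log2 fold change of 0.69 ± 0.28 (SE) did not pass (edgeR adjusted p = 0.298), and was 0.20 without KO replicate 1. Of 9 genes that take part in modifying eIF5A or eEF2, 5 were below 0 and in all 5 both KO libraries lay below both WT libraries. For 2 of the 9 both KO libraries lay above both WT libraries. Of all tested genes, 28.4% lay below and 27.9% above in this way. Of these 9 the gene with the highest mean CPM was Dhps, which makes the hypusine of eIF5A. It had 16.5 and 27.9 CPM in KO and 31.4 and 34.1 CPM in WT (log2 fold change -0.56 ± 0.25, edgeR adjusted p = 0.314). Of 7 factors for recycling, rescue or selenocysteine incorporation 3 were above 0 and 4 below. Among them Ltn1, a ubiquitin ligase for stalled chains, had 134 ± 5.21 CPM in KO and 118 ± 6.02 CPM in WT (SD, n = 2). Of 10 mitochondrial translation factors 5 were above 0 and 5 below, with Tufm, the mitochondrial counterpart of eEF1A, at 0.19. No gene of the 4 lists passed edgeR in either fit and DESeq2 called 0 of the 48. In edgeR without the sex term, 3 were higher and 4 lower at an unadjusted p under 0.05. Of all tested genes, 8.14% were higher and 8.69% lower at that cut, so these counts lie near the share over all genes.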

How the data were processed

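Poly(A)-selected RNA of sorted DP thymocytes was sequenced in 2 KO and 2 WT libraries, and per the labels' protocols the library kit keeps no record of strand. The deposited values are raw counts of fragments per gene and an exon length in bases per gene, made by the authors with featureCounts 1.6.3 on read pairs, summed over the exons of each Ensembl 98 gene on GRCm38, per the file headers. The submitters' processing notes name DESeq2, featureCounts 1.6.4, HISAT2, Trim Galore 0.5.0 and FastQC. No option for strand, multi-mapped fragments or fragments over several genes was set, so reads shared by near-identical or overlapping genes were left out and antisense reads cannot be told apart; exons of 30 members overlap another gene.

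Symbols came from GENCODE M21 (98.2% of IDs matched). In R 4.3.3, genes kept by filterByExpr in edgeR 4.0.16 (15070) were TMM-scaled and tested with the quasi-likelihood F test (threshold 0.05; 2 residual degrees of freedom, 1 with the sex term); log2 CPM used a prior count of 2. The steps were tested on simulated counts that held no sex or replicate effect, so that test does not cover the scatter between these libraries. Alternatives were DESeq2 1.42.0, other scalings, no filter and leaving out each library. Named genes were those past the threshold in either fit, the 2 highest in CPM of each of 10 classes, the 5 with the largest and the 5 with the smallest change among members with at least 5 CPM and no overlap, and a fixed set; other members are named by class. Members and lists were chosen with earlier results of these data known. Replicates of a genotype differed far beyond sampling noise (chi-square per degree of freedom 51.2 in KO and 11.3 in WT) and in sex, so they were separate samples; p-values reflect how these 4 libraries scatter. Intervals and floors (3 counts) cover counting error only.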

Additional observations from a re-analysis of the deposited data

Results flagged for a closer look

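Eif4ebp1, which encodes a binding protein that holds Eif4e away from the scaffold, differed in opposite directions in the 2 sexes, in each beyond its 95% counting interval. The KO minus WT difference was -0.72 in the female pair (69 counts in KO and 120 in WT) and 0.45 in the male pair (113 counts in KO and 108 in WT). The difference between the pairs was not tested, since each pair holds 1 KO and 1 WT library. In 7 other members the pairs also differed in sign, but not beyond counting error in both.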

How the results depend on the processing

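The members' median log2 fold change stayed above 0 in all 11 alternatives, between 0.10 and 0.28. The numbers called varied with the setting. Members called higher and lower were 0 and 0 in edgeR without a sex term, 15 and 2 with no filter on low counts (2.41% and 3.22% of all genes), 3 and 1 with the DESeq2 test, and 0 to 33 and 0 to 4 when 1 library was left out. The highest of these came without KO replicate 2, which leaves KO replicate 1 alone in its group, and where 16.3% and 16.8% of all genes were called; without KO replicate 1 there were 2 (Eef1a1 and Eef2; 0.272% of all) and 1 (Eif4a2; 0.730% of all). A group left with 1 library is assumed to vary like the other. With the replicate number as a block, which is the same thing as the sex term, 1 was called higher and 1 lower; with library-total scaling as well 0 and 0, and with DESeq2 size factors as well 0 and 1 (0.889% and 1.87% of all). These last 2 settings were chosen after seeing the data. Libraries with the same number deviated together from their group means (r = 0.472 over genes), but the labels do not say that a number pairs them. Of 33 named genes, 4 changed sign, none of them in a setting where it was called; Eif2s3x was called higher with no filter on low counts and without KO replicate 2. Leaving out 1 library gave Eif2ak3 values of -0.126 to 0.019, Eif2s3x -0.115 to 0.900, Eif4ebp1 -0.540 to 0.242 and Eif4e -0.020 to 0.135. The sign changed without KO replicate 1 for Eif2ak3 and Eif2s3x, without KO replicate 1 or WT replicate 1 (0.122) for Eif4ebp1, and without WT replicate 1 for Eif4e; with library-total scaling Eif4e was at -0.030, or -0.029 with the block. The cause was not tested. Depth limits Eef1a2, Eif4e1b, Gspt2 and Eef1akmt3, with at most 3 counts over the 4 libraries.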

Other observations

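Eif3j2 differed more between the replicates of a genotype than between genotypes. Replicates 1 and 2 had 5.20 and 1.62 CPM in KO, and 7.17 and 1.91 CPM in WT, so both female libraries were above both male ones. Its near-identical copy Eif3j1 showed no such order, with 69.2 and 57.9 CPM in KO and 54.0 and 56.4 CPM in WT. The difference between the sexes was not tested.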
